A study of Mus musculus with 4 samples.

Results

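Autophagy and lysosome genes were followed across 4 single-colour arrays of mouse LSK cells, marrow cells that lack lineage markers and carry c-Kit and Sca-1, among them the hematopoietic stem cells and early progenitors. The set has 32 genes, 22 of autophagy and 10 of the lysosome, out of 20887 genes with a symbol on the array. Members were found through the RefSeq transcript named for each probe, and the brightest probe stood for its gene. All 32 were found, and all 32 were well above background on all 4 arrays by the scanner software's call. All cells were of the C57BL/6 strain. Sf3b1+/- native cells came from mice aged 20 weeks with a single functional copy of Sf3b1, a subunit gene of the U2 spliceosome particle, and wild-type native cells from mice of the same age with both copies. Sf3b1+/- transplanted and wild-type transplanted cells were CD45.2+ donor LSK cells recovered 9 months after lethally irradiated CD45.1+ recipients had received total marrow of 1 genotype. Transplantation was done to set aside indirect effects of the marrow surroundings. The series text gives 4 mice for the native and 5 recipients for the transplanted collection. The labels do not say how many stand behind each array or which part of Sf3b1 is deleted.

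With 1 array per group, a difference within a setting has no replicate check and carries no p-value. A scaled signal of 1 below is the 75th percentile of the detected probes of an array, and differences are on the log2 scale, Sf3b1+/- minus wild type or transplanted minus native. Levels are compared between arrays for 1 gene at a time, since probes differ in brightness for reasons other than abundance. The scanner software's own error for the member probes had a median of 10.0% of the signal, which gives a difference between arrays an error of 0.20 to 0.23. Beyond that error lay 12 of the 32 members for genotype in native cells and 14 in transplanted cells. The same share over all compared genes was not computed, so these counts do not set the members apart from other genes. The sole member printed in 10 spots, Map1lc3b, varied between spots with an SD of 0.021 to 0.057. Sf3b1 itself had 75.4% of the wild-type signal in native and 92.8% in transplanted Sf3b1+/- cells. The sorting markers Kit and Ly6a were well above background on all arrays. Ly6a, which encodes Sca-1, stood at -0.20 for genotype in native cells and 0.60 in transplanted cells. Before scaling, the 75th percentile over all spots except controls was 299.7 units for Sf3b1+/- native and 253.1 for wild-type native cells. It was 430.3 for Sf3b1+/- transplanted and 291.7 for wild-type transplanted cells. The scaling itself used the percentile of detected probes, which is a different value.

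Autophagy encloses cytoplasm in a double membrane and delivers it to the lysosome for breakdown. The Ulk1 kinase complex starts the process, the Becn1 and Atg14 lipid kinase complex marks the membrane, and Wipi proteins read that mark. A pair of ubiquitin-like conjugation systems then attaches Atg12 to Atg5, and the Atg8 proteins (LC3 and GABARAP) to lipid. Cargo is tethered by receptors such as Sqstm1 (p62), and cathepsins and other hydrolases digest it after fusion. The transcription factor Tfeb drives many lysosome genes through a DNA element built around the letters CACGTG. In mice, loss of Atg7 or Atg12 in blood cells impairs hematopoietic stem cells.

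Because Tfeb is a member and its element is the best known shared feature of lysosome genes, the promoters of members were searched for it. RefSeq promoter windows (build GRCm38.p6) were at hand for 25 of the 32 genes, and the 250 bases before the gene start were read. The core CACGTG, which reads the same on both strands, was found upstream of 4 of 8 lysosome members and 3 of 17 autophagy members, against 6.86% of the 27025 genes with a promoter window. The longer form GTCACGTG, searched on both strands and always holding the core, was found for 3 lysosome members (Ctsa, Ctsd and Lamp1) and 2 autophagy members (Atg3 and Atg7), against 2.11% of all genes with a window. The list was chosen as lysosome genes, many of them known for this element, so the share is a description. The 250 bases upstream of the 4 lysosome members with a core are shown for their different number and place of cores, with every match of the core or of a longer form in capitals. Lamp1 is at chr8:13158911-13159160 on the plus strand and Ctsa at chr2:164833523-164833772 on the plus strand. Ctsd is at chr7:142387828-142388077 and Ctsl at chr13:64370521-64370770, both on the minus strand.
Lamp1: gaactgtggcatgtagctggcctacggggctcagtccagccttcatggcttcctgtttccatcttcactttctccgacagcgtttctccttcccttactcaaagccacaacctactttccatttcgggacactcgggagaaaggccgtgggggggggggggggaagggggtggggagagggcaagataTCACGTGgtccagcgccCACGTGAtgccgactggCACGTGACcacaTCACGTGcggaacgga
Ctsa: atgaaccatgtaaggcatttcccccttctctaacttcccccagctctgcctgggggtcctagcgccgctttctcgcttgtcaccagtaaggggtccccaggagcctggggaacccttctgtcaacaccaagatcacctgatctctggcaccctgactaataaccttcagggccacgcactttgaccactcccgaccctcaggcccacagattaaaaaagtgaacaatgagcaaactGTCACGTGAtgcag
Ctsd: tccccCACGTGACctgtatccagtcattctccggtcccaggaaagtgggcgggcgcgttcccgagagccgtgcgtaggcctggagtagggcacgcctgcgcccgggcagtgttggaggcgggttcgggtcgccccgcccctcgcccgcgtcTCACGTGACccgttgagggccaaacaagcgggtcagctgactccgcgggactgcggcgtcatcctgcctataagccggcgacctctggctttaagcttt
Ctsl: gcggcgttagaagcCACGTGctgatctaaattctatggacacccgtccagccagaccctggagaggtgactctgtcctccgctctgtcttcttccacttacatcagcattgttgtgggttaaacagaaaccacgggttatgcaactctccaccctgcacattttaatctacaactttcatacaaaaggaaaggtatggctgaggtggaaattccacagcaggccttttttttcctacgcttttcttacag
Lamp1 held 4 cores and Ctsd 2, while Ctsa had its single core 12 bases before the gene start and Ctsl had one 236 bases before it. For transplanted minus native Sf3b1+/- cells Ctsl stood at 1.07, Ctsd at 0.28, Ctsa at 0.23 and Lamp1 at 0.16, all positive. The other probe of Ctsd gave 1.18 and that of Ctsa -0.58. All 10 lysosome members were positive in this comparison. Lysosome members with a window and no core stood at 0.65 for Hexa, 0.56 for Npc2, 0.55 for Ctsz and 0.01 for Lamp2. Autophagy members with a core stood at 0.01 for Atg3, 0.03 for Atg5 and -0.41 for Atg7 by its brighter probe. The part of the element in these values was not tested.

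The first question is how the genes differ with genotype in native cells. Differences were small. A single member, Sqstm1, was at least 1.5-fold apart, which is 1 of 32 against 7.95% of the 13034 compared genes in either direction and 4.7% in the lower direction. Sqstm1 (NM_011018), the receptor that links ubiquitin-tagged cargo to Atg8 proteins, had a scaled signal of 0.643 in Sf3b1+/- native cells, against 0.977 in wild-type native cells. In transplanted cells it had 1.02 in Sf3b1+/- and 0.930 in wild type. It was thus 1.52-fold lower with the mutation in native cells and differed by 0.14 (log2) in transplanted cells, and 3 of its 4 values lay close together with the Sf3b1+/- native array below them.

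Lysosome members leaned lower in Sf3b1+/- native cells. Of the 10 members 9 had a negative difference, where 50.3% of all compared genes did, and their median was -0.12 against -0.00 for all genes. With spike-in scaling 8 of the 10 were positive, yet 1 of the 10 stood above the median of all genes, as in the scaling used here. Ctsl (NM_009984), which encodes the cysteine protease cathepsin L, had 1.18 in Sf3b1+/- native cells against 1.67 in wild-type native cells, a difference of -0.50. The lysosomal membrane protein gene Lamp2 stood at -0.29 and Ctsb, which encodes cathepsin B, at -0.22. Lamp1, the other major membrane glycoprotein gene, was the sole positive one at 0.02. The 5 Atg8 genes were negative as well, between -0.31 for Gabarapl1 and -0.05 for Gabarap. With quantile normalization or cyclic loess 1 of these 5 was positive, with normexp 1, and with spike-in scaling 3. Wider lists of lysosome genes stood closer to the median of all genes. Of 42 further lysosomal enzymes 23 were negative, with a median of -0.03. Of 25 lysosomal membrane proteins 13 were negative, with a median of -0.01. Of 17 subunits of the V-ATPase, the lysosomal proton pump, 7 were negative, with a median of 0.04.

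Marker genes of macrophages and dendritic cells, which are rich in lysosomes, had a median of -0.50 over 9 compared genes in native cells, 8 of them negative, and of -0.34 over the 7 well above background on all arrays. The lysozyme gene Lyz2 was at -0.19, Csf1r at -0.50 and Cd14 at -1.23. Markers of some other cells differed between genotypes as well. The 8 compared B and plasma cell markers had a median of -1.28 in native and -0.63 in transplanted cells. Over the 5 well above background on all arrays the medians were -0.47 and -0.61. Megakaryocyte and platelet markers stood at 0.56 and 1.05, with 10 of 10 positive in both settings. Mast cell, basophil and eosinophil markers stood at 0.61 and 0.71. Other lists had smaller medians or changed sign, with neutrophil markers at -0.07 and -0.17. T and NK cell markers were at -0.17 and -0.53 and erythroid markers at 0.27 and -0.02. Over markers well above background on all arrays these 2 lists gave -0.11 and -0.46, and 0.50 and 0.08. The part of any of these in the lysosome and autophagy differences was not tested. In bulk RNA, fewer cells of a type and less RNA per cell cannot be told apart.

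**Figure D1:**
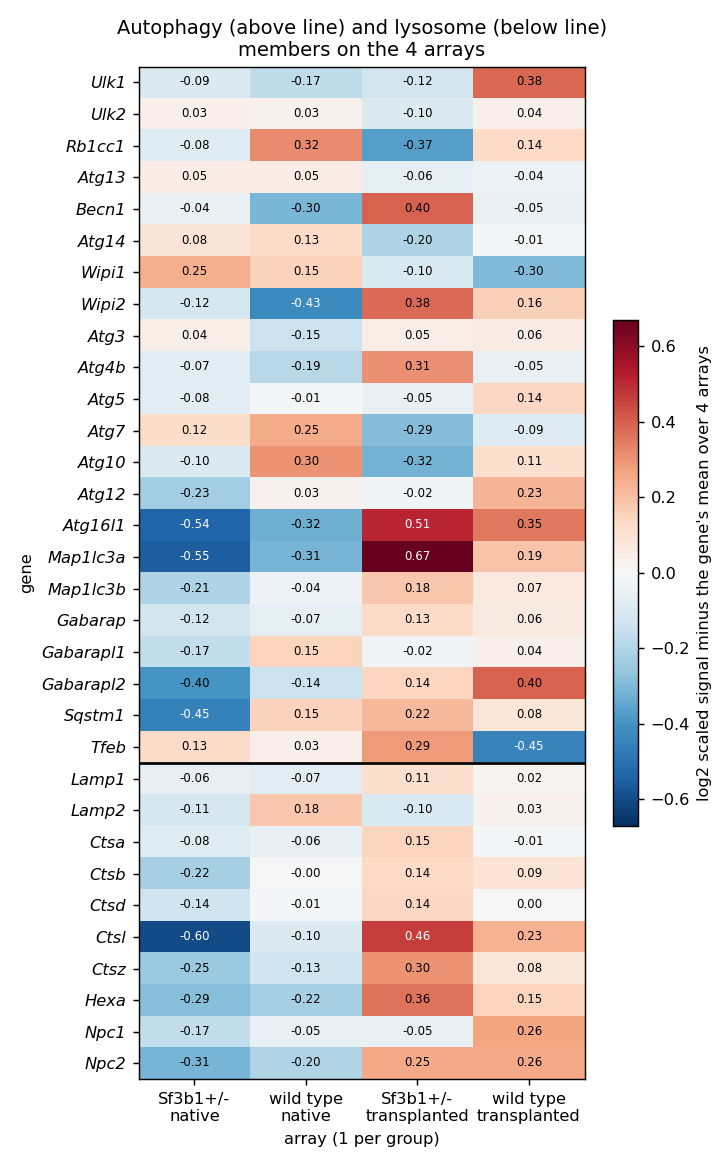
Each cell gives a gene's log2 scaled signal on an array (1 array per group, columns) minus that gene's mean over the 4 arrays, with autophagy members above the line and lysosome members below it. Ctsl, Sqstm1, Map1lc3a and Atg16l1 have their lowest value on the Sf3b1+/- native array, and their highest on the Sf3b1+/- transplanted array.

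In transplanted cells the lysosome members leaned the other way. Of the 10 members 7 were higher in Sf3b1+/- cells, where 50.5% of all compared genes were, with a median of 0.11 against 0.01 for all genes. The lysosome medians of both settings were smaller than the scanner error of a single difference, 0.20 to 0.23. Beyond the error of their own probes lay Ctsl, Lamp2 and Ctsb in native cells. In transplanted cells Ctsl, Ctsz, Hexa and, in the negative direction, Npc1 did. All 5 cathepsin and protective protein genes were positive, between 0.05 for Ctsb and 0.23 for Ctsl. The other probe of Ctsa, the protective protein gene, gave -0.35 at a far dimmer signal. Npc1, which encodes the membrane-bound partner of the cholesterol exporter of lysosomes, was at -0.32, while Npc2, its soluble partner, was at -0.00. No lysosome member was 1.5-fold apart.

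Tfeb (NM_001161722) was the sole member at least 1.5-fold apart between the transplanted genotypes, 1 of 32 against 14.2% of compared genes in either direction and 7.79% in the higher direction. Its scaled signal was 0.0914 in Sf3b1+/- transplanted cells and 0.0549 in wild-type transplanted cells, a 1.66-fold difference, and 0.0818 in Sf3b1+/- native and 0.0767 in wild-type native cells. The wild-type transplanted array is the one that stands low, and the other 3 lie closer together. With normexp background correction the Tfeb difference was 0.32, below 1.5-fold.

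The macrophage and dendritic cell markers had a median of 0.51 between the transplanted genotypes, but of -0.00 over the 7 well above background on all arrays. Of the 9 compared, 5 were positive, led by Vcam1 at 1.31 and Lyz2 at 0.85, and 4 negative, with Mpeg1 at -0.49, Itgax at -0.32 and Csf1r at -0.26. C1qa and C1qc, complement genes of tissue macrophages, and the mannose receptor gene Mrc1 were well above background on the Sf3b1+/- transplanted array alone. Their signals there were 80.2, 117.4 and 36.5 units, against 6.24, 7.55 and 4.88 units in wild-type transplanted cells. The summed scaled signal of the 13 macrophage and dendritic cell markers, to which bright probes such as those of Csf1r and Mpeg1 add most, was 6.96 in Sf3b1+/- transplanted and 8.06 in wild-type transplanted cells, and 3.59 in Sf3b1+/- native and 4.88 in wild-type native cells. Siglec1 was not well above background on any array.

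Among autophagy members the median genotype difference was -0.06 for native cells and -0.02 for transplanted cells, and the sign of the second depends on the scaling. Of the 22 genes 5 were positive in both settings and 8 negative in both, against 34.1% and 33.9% of all compared genes. Atg10 (NM_025770), the E2-like enzyme that hands Atg12 to Atg5, was among the members lowest in both settings. It had 0.160 in Sf3b1+/- native cells against 0.211 in wild-type native cells, and 0.138 in Sf3b1+/- transplanted against 0.185 in wild-type transplanted cells. Both Sf3b1+/- arrays lay below both wild-type arrays. Its other probe gave -0.39 and -0.32, close to the -0.40 and -0.43 of the brighter one.

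Rb1cc1, which encodes the FIP200 scaffold of the Ulk1 complex, had similar values by its brighter probe, -0.40 in native and -0.51 in transplanted cells. Its other probe, also well above background on all arrays, gave 0.24 and 0.14, so the direction for Rb1cc1 rests on the choice of probe. Ulk1, the kinase that starts autophagy, was level in native cells at 0.07 and lower in transplanted Sf3b1+/- cells at -0.50, with 2.01 there against 2.85 in wild-type transplanted cells. Becn1, the regulatory subunit of the lipid kinase, was higher in both settings at 0.26 and 0.45. Wipi2, a reader of the kinase's lipid product, was at 0.31 and 0.22, while its other probe gave -0.09 and -0.03. Atg12 was at -0.26 and -0.25 and Gabarapl2 at -0.25 in both settings. Atg13, a partner of Ulk1, was level at 0.00 and -0.02. Of the 11 members with 2 probes, 4 had opposite signs by their probes for genotype in native and 6 in transplanted cells, and 4 did for transplanted minus native in Sf3b1+/- and 5 in wild-type cells. For genotype in native and then transplanted cells, Ulk2, a relative of Ulk1, stood at 0.01 and -0.13, Atg14 at -0.04 and -0.20, Atg3, the E2-like enzyme of the Atg8 genes' products, at 0.19 and -0.01, Atg4b, a protease that processes those products, at 0.12 and 0.36, and Atg5 at -0.06 and -0.19.

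**Figure D2:**
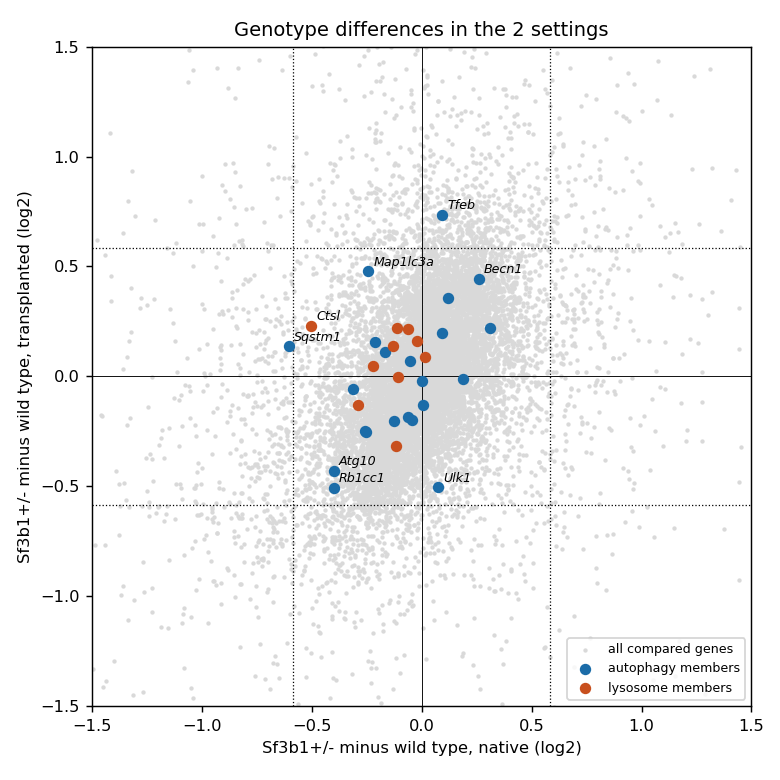
Each point is a gene, with Sf3b1+/- minus wild type in native cells on the x axis and in transplanted cells on the y axis, both in log2; dotted lines mark 1.5-fold, grey points are all compared genes, and genes beyond the axes are not drawn. Sqstm1 at -0.60 passes the native line and Tfeb at 0.74 the transplanted one, while no member passes both.

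Genotype was tested over both settings with limma, in a fit that also holds the setting and leaves each gene 1 residual degree of freedom. No member passed an adjusted p of 0.05 (0 of 32, with 0 of 13034 genes or 0% called), and the members' adjusted p ran from 0.352 to 0.990. At an unadjusted p under 0.05 stood 2 members, Rb1cc1 and Atg10, against 13.6% of all genes. Atg10 had a mean difference of -0.42 ± 0.12 (SE, adjusted p = 0.360 by limma), lower in both settings. The p-values rest on how far the genotype difference changed between settings, pooled with the same spread over all genes. No group has a replicate array, and part of this spread may be technical.

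The genotype difference was more positive in transplanted than in native cells for 9 of 10 lysosome members and 11 of 22 autophagy members, against 50.5% of all compared genes. The members with the largest such contrast were Sqstm1 (0.74), Ctsl (0.73), Map1lc3a (0.72) and Tfeb (0.64). These 4 of 32 were at least 1.5-fold more positive, against 8.12% of all genes, and none was as much more negative, against 5.39%. The contrast takes up the 1 residual degree of freedom of the fit, so it has no test. The native genotype differences, this contrast and the Sf3b1+/- values of transplanted minus native below all use the Sf3b1+/- native array. They are not separate observations.

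The next comparison sets transplanted against native cells. Settings differ in the age of the cells, the irradiated host and the time since transplantation, which cannot be told apart. Lysosome members leaned higher after transplantation in both genotypes. In Sf3b1+/- cells 10 of 10 were positive with a median of 0.32, and in wild-type cells 9 of 10 with a median of 0.15. Among all compared genes 50.8% were positive in Sf3b1+/- and 50.1% in wild-type cells. Under the other scalings 9 or 10 of 10 were positive in Sf3b1+/- cells, or 8 with normexp, and 7 to 10 in wild-type cells.

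At least 1.5-fold higher were 5 of 32 members in Sf3b1+/- cells, against 11.4% of compared genes (18.4% in either direction), and 2 of 32 in wild-type cells, against 7.95% (13.7% in either direction). No member was 1.5-fold lower in either genotype, against 7.01% of compared genes in Sf3b1+/- and 5.74% in wild-type cells. Of the 32 members 20 were positive in both genotypes and 6 negative in both, against 36.9% and 36% of compared genes. Ctsl had 2.47 in transplanted and 1.18 in native Sf3b1+/- cells, 2.09-fold apart, and 2.10 in transplanted and 1.67 in native wild-type cells. Hexa (NM_010421), the alpha subunit of beta-hexosaminidase, which degrades gangliosides, had 3.06 in transplanted and 1.95 in native Sf3b1+/- cells, and 2.64 in transplanted and 2.04 in native wild-type cells. For both genes both transplanted arrays lay above both native ones. Npc2 did the same, with 4.04 and 2.73 in Sf3b1+/- and 4.05 and 2.95 in wild-type cells, transplanted before native. Ctsz, which encodes cathepsin Z, stood at 0.55 in Sf3b1+/- and 0.21 in wild-type cells. Ctsa was at 0.23 and 0.04 by its brighter probe and at -0.58 and -0.36 by the dim one. Lamp2 was level, at 0.01 in Sf3b1+/- and -0.15 in wild-type cells, although its other probe, named for another transcript, gave 0.46 and 0.37.

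**Figure D3:**
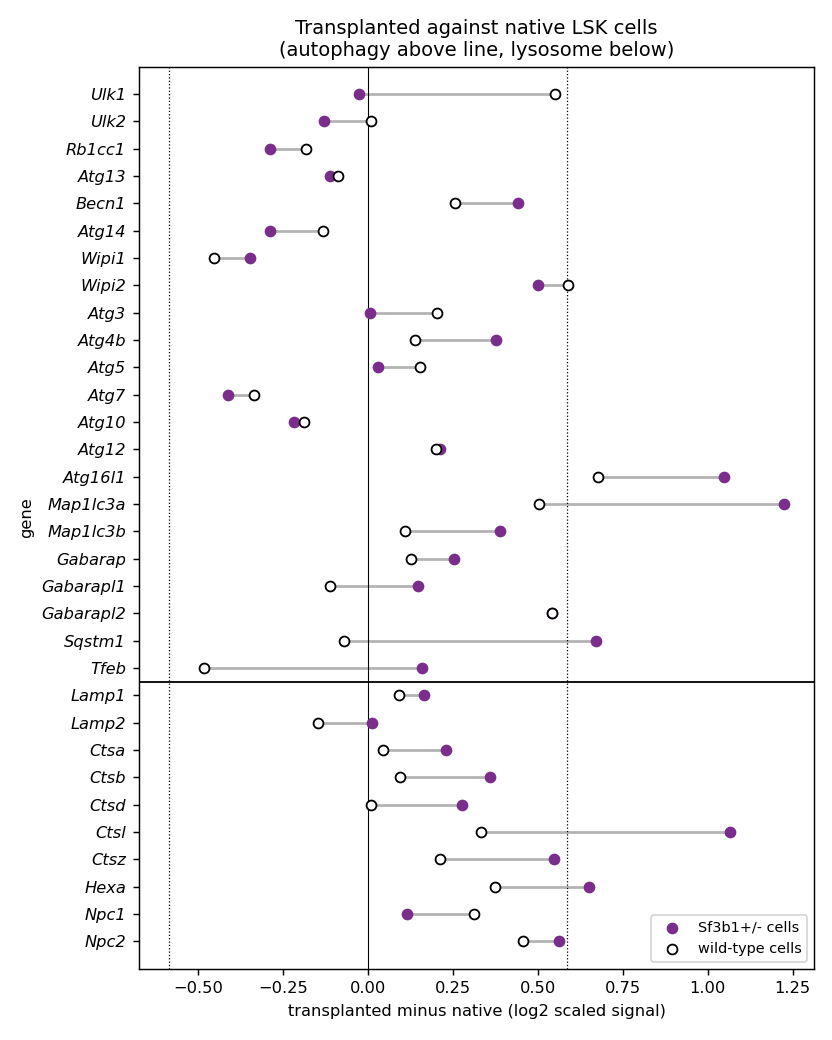
The x axis gives the log2 difference transplanted minus native for each gene in Sf3b1+/- cells (filled) and wild-type cells (open), with dotted lines at 1.5-fold and a line between the 2 genotypes of a gene. Filled points of the lysosome members all lie above 0, from 0.01 for Lamp2 to 1.07 for Ctsl.

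Atg16l1 (NM_001205392), which brings the Atg12-Atg5 conjugate to the growing membrane, was the one member at least 1.5-fold higher after transplantation in both genotypes, where 4.55% of compared genes were. Its scaled signal was 0.165 in transplanted against 0.0799 in native Sf3b1+/- cells and 0.148 in transplanted against 0.0926 in native wild-type cells. Map1lc3a (NM_025735), an LC3 gene, had 0.510 in transplanted and 0.218 in native Sf3b1+/- cells, a 2.34-fold difference, and 0.366 in transplanted and 0.258 in native wild-type cells. Both transplanted arrays lay above both native arrays for each of these genes.

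The other Atg8 genes had smaller values. Gabarapl2 was at 0.54 in both genotypes, Map1lc3b at 0.39 in Sf3b1+/- and 0.11 in wild-type cells, and Gabarap at 0.25 and 0.13. Gabarapl1 was at 0.15 in Sf3b1+/- and -0.11 in wild-type cells. In Sf3b1+/- cells all 5 Atg8 genes were positive under every scaling tried. Sqstm1 was 1.59-fold higher after transplantation in Sf3b1+/- cells (0.67) and level in wild-type cells (-0.07). Since the Sf3b1+/- native array also gave its low genotype value, these are not separate observations.

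Some autophagy members were lower after transplantation. Wipi1 had 0.0497 in transplanted and 0.0633 in native Sf3b1+/- cells, and 0.0434 in transplanted and 0.0594 in native wild-type cells. Atg7, the E1-like enzyme of both conjugation systems, stood at -0.41 and -0.34 by its brighter probe and at 0.14 and 0.01 by the other. Wipi2 was higher at 0.50 and 0.59, with 0.52 and 0.46 by its other probe. Its 0.59 in wild-type cells passes 1.5-fold only narrowly. It was 0.52 with the 75th percentile over all probes, 0.56 with quantile normalization or cyclic loess, 0.44 with normexp and 1.06 with spike-in scaling.

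In the limma fit with genotype as the second term, no member passed for the setting (0 of 32, against 0.583% of compared genes). At an unadjusted p under 0.05 stood 9 members, against 25.8% of all genes. The lowest adjusted p was that of Atg16l1, with a mean difference of 0.86 ± 0.15 (SE, adjusted p = 0.105 by limma), higher in both genotypes. It was followed by Gabarapl2 and Wipi2 (each 0.54 ± 0.12, adjusted p = 0.128).

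Other genes of the pathway were taken from lists of related machinery. The V-ATPase, the proton pump that acidifies lysosomes, had medians of 0.38 in Sf3b1+/- and 0.26 in wild-type cells over 17 subunits, with 14 and 13 of them positive. At least 1.5-fold higher were 5 subunits in Sf3b1+/- cells, against 11.4% of compared genes, and 2 in wild-type cells, against 7.95%, and none was 1.5-fold lower. Atp6v0b, a proteolipid of the membrane ring, stood at 1.09 and 0.88, and Tcirg1, the a3 subunit, at 0.95 and 0.65. None of the 17 passed for the setting by limma, and 8 had an unadjusted p under 0.05, against 25.8% of all genes. Of 42 further lysosomal enzymes 7 were 1.5-fold higher and 2 lower in Sf3b1+/- cells, with a median of 0.12, and 4 and 2 in wild-type cells, with a median of 0.01. The higher ones are 16.7% and 9.52% of the list, beside 11.4% and 7.95% of all compared genes. Ctsh, the aminopeptidase cathepsin H, stood at 1.67 and 1.66 and was the one enzyme of the list called for the setting (mean 1.67 ± 0.12, adjusted p = 0.0395 by limma). Among all compared genes 0.583% were called for the setting. The asparagine-specific protease gene Lgmn stood at 0.89 and 0.74, and Ppt1, a depalmitoylating enzyme, at 0.88 and 0.72.

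Igf2r, the large mannose 6-phosphate receptor that carries enzymes to lysosomes, was lower after transplantation in both genotypes. It had -1.64 in Sf3b1+/- and -1.69 in wild-type cells, and of the 13 sorting genes it alone was called (mean -1.67 ± 0.12, adjusted p = 0.0395 by limma). The share called over all compared genes was again 0.583%. With quantile normalization or cyclic loess no gene at all was called for the setting, Ctsh and Igf2r included. Of 30 further autophagy genes 6 were 1.5-fold higher in Sf3b1+/- cells, against 11.4% of compared genes, and 4 in wild-type cells, against 7.95%. None was 1.5-fold lower, against 7.01% and 5.74%. Vmp1, an endoplasmic reticulum protein of autophagosome formation, stood at 1.01 and 0.90, Wdr45b, a Wipi relative, at 1.05 and 0.80, and Atg9a, a lipid scramblase, at 0.71 and 0.87. Selective autophagy receptors had medians of -0.07 in Sf3b1+/- and 0.06 in wild-type cells over 16 genes, with Ncoa4, the ferritin receptor, at -0.72 and -0.39. Of 25 lysosomal membrane proteins 2 were higher and 2 lower in Sf3b1+/- cells, led by the chloride transporter gene Clcn7 at 1.24, and none was 1.5-fold apart in wild-type cells.

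For genotype, 2 compared genes of these lists were 1.5-fold apart in both settings, each of them lower. They are 1 of 32 genes of TORC1 and Tfeb control and 1 of 25 lysosomal membrane proteins. In native cells alone 4.7% of all compared genes were 1.5-fold lower, and the share lower in both settings is not given here. Fnip1, which binds folliculin in the control of Tfeb and TORC1, stood at -0.95 in native and -0.93 in transplanted cells, with 687.5 against 1131 units before scaling in native and 1115 against 1445 in transplanted cells, Sf3b1+/- before wild type. The lysosomal membrane gene Gpr137b stood at -0.76 and -0.77. Mtor, the kinase of TORC1, was at 0.50 and 0.81. By limma none of these passed for genotype, with an adjusted p of 0.308 for Fnip1, 0.308 for Gpr137b and 0.320 for Mtor. In transplanted cells alone Clcn7 stood at 0.82 and Vps39, a tethering subunit, at 0.77, while Wdfy3, a large selective autophagy scaffold, was at -0.75.

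**Figure D4:**
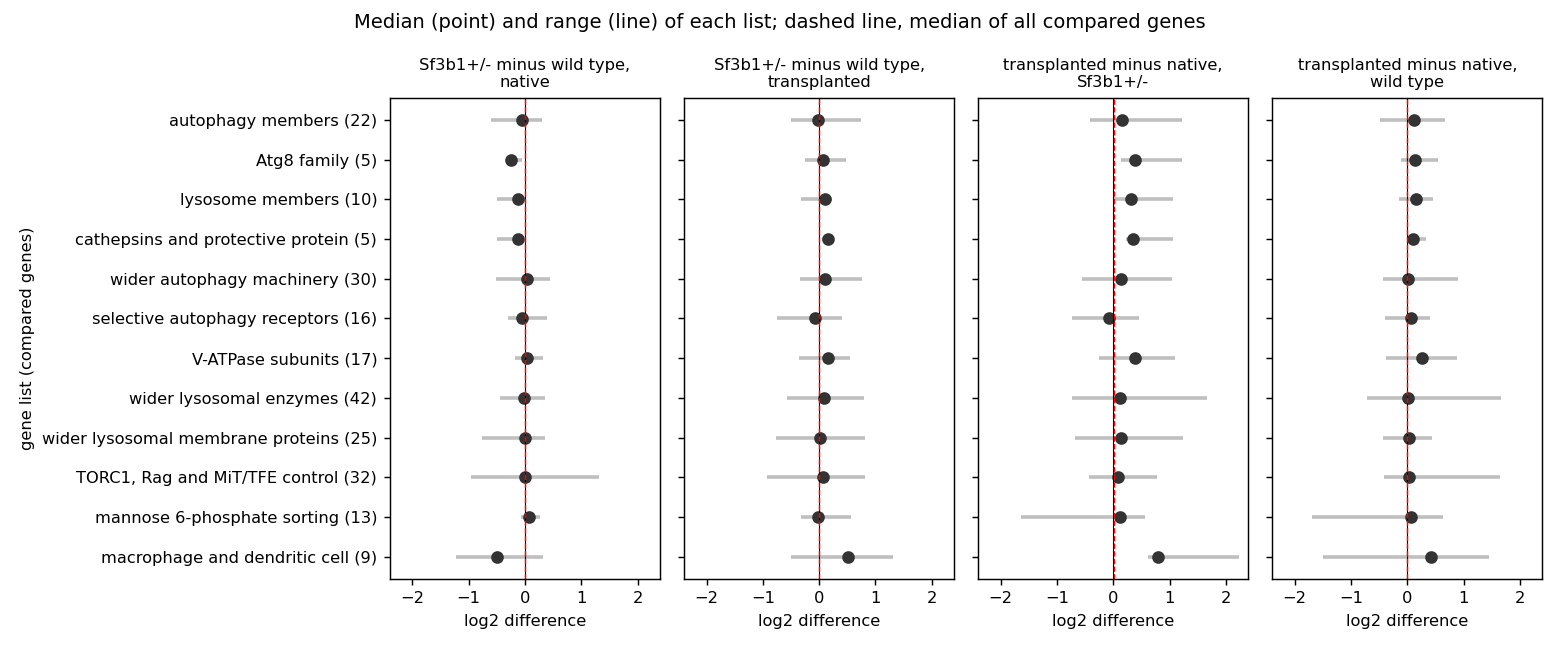
Points give the median and grey lines the range of log2 differences over the compared genes of each list (number in brackets), in 4 panels for the 4 comparisons; the dashed line is the median of all compared genes. From left to right the medians of the lysosome members are -0.12, 0.11, 0.32 and 0.15. Those of the 9 macrophage and dendritic cell markers are -0.50, 0.51, 0.80 and 0.42. Over the 7 markers well above background on all arrays, not drawn, they are -0.34, -0.00, 0.80 and 0.82.

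The macrophage and dendritic cell markers stood higher after transplantation too, with medians over 9 compared genes of 0.80 in Sf3b1+/- and 0.42 in wild-type cells. Over the 7 well above background on all arrays the medians were level between genotypes, 0.80 in Sf3b1+/- and 0.82 in wild-type cells. The 7 markers well above background on all arrays were each at least 1.5-fold higher in Sf3b1+/- cells, against 11.4% of compared genes; Adgre1 and Fcgr1 were not well above background on the Sf3b1+/- native array. Mpeg1 was at 1.21 in Sf3b1+/- and 1.36 in wild-type cells, and Lyz2 at 1.86 and 0.82. The neutrophil list had medians of 0.08 and 0.59, and the 8 compared B and plasma cell markers -1.79 and -2.60, in the same order of genotypes. Over the 5 B and plasma cell markers well above background on all arrays the medians were -1.72 and -0.81, so the order of the genotypes turned. The part of these cell type markers in the lysosome values was not tested.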

How the data were processed

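Sorted LSK cells were profiled on 4 arrays. Per the labels' protocols, 20 ng of column-purified total RNA received spike-ins before amplification and Cy3 labelling. Per the file headers, the deposited intensity is the processed signal of Feature Extraction 10.7.1.1, background-subtracted and detrended within the array, with probe positions on build mm9. The authors' deposited series table holds a linear ratio, which from the values is the processed signal divided by 1 constant per array (column medians 0.0745, 0.0810, 0.0747 and 0.0816 for Sf3b1+/- native, wild-type native, Sf3b1+/- transplanted and wild-type transplanted cells); direction and scale follow from that, nothing is centred, and the labels name no tool for it.

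Control spots and spots marked as outliers were left out and spots averaged per probe on the log2 scale. Of 55681 probes 27509 matched a symbol through RefSeq (GRCm38.p6, names only), giving 20887 genes. Spots well above background made up 48.6%, 47.7%, 51.5% and 50.2% in the same order, under 50% on average, so each array was shifted by the 75th percentile of probes well above background on all 4. A gene was compared if well above background on 2 or more arrays (13034 genes). Replicate spots varied with an SD of 0.10 to 0.12. No spot was saturated, and all arrays lay on 1 slide, so slide position follows the group.

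The fit was made in R 4.3.3 with limma 3.58.1 (linear model of genotype plus setting with moderated variance, two-sided, Benjamini-Hochberg 0.05), tested on simulated data. The number of arrays limits the precision. All members are named; of each pathway list at most 3 genes per comparison, those furthest apart among genes at least 1.5-fold apart and well above background on all arrays. The members and lists were chosen with earlier results of these data known. The planned normexp on the mean spot signal was replaced by the median spot signal, the one the files hold. Promoter sequences are RefSeq's.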

Additional observations from a re-analysis of the deposited data

Results flagged for a closer look

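Members whose genotype difference had opposite signs in the 2 settings, each beyond the largest SD of replicate spots (0.124), were marked, and the difference between settings was not tested. Given as Sf3b1+/- minus wild type, first native and then transplanted, Sqstm1 stood at -0.60 and 0.14, Ctsl at -0.50 and 0.23 and Map1lc3a at -0.24 and 0.48. Atg16l1 stood at -0.21 and 0.16 and Ctsd at -0.13 and 0.14. These are 5 of 32 members (15.6%), beside 10.6% of all compared genes by the same rule.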

How the results depend on the processing

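Of 132 recomputed main values 96 were within the largest replicate-spot SD (0.124) or, for counts, within 1.5 times the value reported. Spike-in scaling moved the median of all compared genes to 0.24 and 0.62 for genotype in native and transplanted cells and to 0.85 and 0.47 for transplanted minus native in Sf3b1+/- and wild-type cells. The members moved with it, and the native medians of both sets and the transplanted autophagy median for genotype turned positive: in that order autophagy medians were 0.19, 0.60, 0.99 and 0.59, lysosome medians 0.13, 0.73, 1.16 and 0.62, and 0, 20, 28 and 16 members were 1.5-fold apart. At 2-fold the counts were 0, 0, 3 and 0. With normexp 0 members were 1.5-fold apart between the transplanted genotypes and 0 between wild-type settings. The count between wild-type settings was 1 with the 75th percentile over all probes, quantile normalization, cyclic loess, the series table and the mean over a gene's probes. That mean gave a lysosome median of 0.45 for Sf3b1+/- settings. For genotype limma called 641 genes with spike-in scaling, 20 with normexp and 98 with an intensity trend, and 0 of the members in each. For the setting, 76 genes were called, against 6185 with spike-in scaling, 1400 with normexp, 2226 with a trend, 263 with the filter on all 4 arrays, 7 with the series table, and 0 with quantile normalization, cyclic loess, no filter or the mean over probes. Of the members 22 were called with spike-in scaling, 9 with a trend (Atg16l1, Map1lc3a, Gabarapl2, Ctsl, Ctsz, Hexa, Npc2, Wipi2 and Atg7) and 5 with normexp (Atg16l1, Map1lc3a, Gabarapl2, Hexa and Npc2). The cause of these changes was not tested. No paired analysis was possible because the groups share fewer than 2 replicate numbers. Leaving out an array leaves no residual degree of freedom. Normexp on the median spot signal was added after seeing the data.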
